A study of Homo sapiens with 12 samples.

Results

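Integrin genes were examined in lung adenocarcinoma (LUAD) cells treated with an MDM2 inhibitor. The 10 members were the listed subunit genes ITGA2, ITGA3, ITGA5, ITGA6, ITGAV, ITGB1, ITGB3, ITGB4, ITGB5 and ITGB6, found by Ensembl identifier among the 20595 genes of the deposited counts table. The remaining 16 integrin subunits, also in the table, were used for comparison. Both A549 and H1792 were kept for 48 h in DMSO, the solvent control, or in RG7112 at 1 μM before RNA-seq, and each of the 4 groups had 3 replicates. The dose is that of the labels and of the study's methods, whereas the table's column names give a dose 10 times lower. Both are established LUAD lines that the study describes as MDM2-amplified. A549 was taken as p53 wild-type (WT) and H1792 as p53 mutant, as in most of the study's text. Each genotype was therefore represented by a single line, and p53 status cannot be told apart from any other difference between A549 and H1792. Whether the replicates came from separate cultures is not stated, so that errors and p-values measure the spread between these libraries, which may be technical.

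Integrins are cell surface receptors made of 1 α and 1 β subunit, which bind matrix proteins outside the cell and couple to the actin or keratin cytoskeleton inside it. The β subunit sets much of the pairing. ITGB1 joins many α subunits, among them ITGA3 and ITGA6, which bind laminin, ITGA5, which binds fibronectin, and ITGA2, which binds collagen. ITGAV pairs with ITGB3, ITGB5 or ITGB6 to bind RGD-containing ligands such as vitronectin, and ITGAV with ITGB6 activates latent TGF-β. ITGA6 with ITGB4 forms the laminin receptor of hemidesmosomes, which anchors keratin filaments in epithelial cells. RG7112 is a small molecule that keeps MDM2 from binding p53.

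Of the 10 members, 7 could be tested. In A549 with RG7112, ITGB4 and ITGA5 rose, where 4.35% of all tested genes were called higher and 4.03% lower. In H1792, ITGB1, ITGAV and ITGA6 rose and ITGA3 fell, where 17.7% of all tested genes were called higher and 16.5% lower. ITGA3 was also called in A549, as higher, in 4 of 9 other settings, but in 0 of the 6 fits that left out 1 library. The difference between the responses itself passed the test for 5 members, 3 higher and 2 lower in A549, beside 10.4% and 11.4% of all tested genes. Before treatment 3 members were higher and 1 lower in A549 than in H1792, counts not far from the 26.5% and 23.2% of all tested genes.

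The promoter sequences of the members called higher in H1792 are shown for a view of what they share. The ITGA6 call among these was kept in 1 of 6 fits that left out a library. RefSeq sequence of GRCh38.p14 was matched by symbol for 7 of the 10 members, with 12 windows in all, since several genes have more than 1 start. ITGA3, ITGB3 and ITGB4 had no entry. For ITGB1, ITGAV and ITGA6, the 250 bases before the most upstream listed start are printed 5′ to 3′ on the strand of the gene. The windows are chr10:32958231-32958480 (minus strand) for ITGB1, chr2:186589806-186590055 (plus strand) for ITGAV and chr2:172427086-172427335 (plus strand) for ITGA6. Those of ITGAV and ITGA6 lay outside annotated GENCODE v29 genes, and that of ITGB1 lay within the ITGB1 gene with 2 bases in an exon. Capitals mark matches on either strand to the GC box, spelled GGGCGG. They also mark the TATA box, spelled TATAAA. The last of the marked motifs is the TEAD site, spelled CATTCC. No marked matches overlap.
ITGB1: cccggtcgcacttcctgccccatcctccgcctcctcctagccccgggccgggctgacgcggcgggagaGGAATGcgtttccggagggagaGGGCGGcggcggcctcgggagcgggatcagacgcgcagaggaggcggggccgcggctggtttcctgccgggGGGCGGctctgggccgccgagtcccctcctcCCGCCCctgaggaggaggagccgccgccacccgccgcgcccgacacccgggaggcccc
ITGAV: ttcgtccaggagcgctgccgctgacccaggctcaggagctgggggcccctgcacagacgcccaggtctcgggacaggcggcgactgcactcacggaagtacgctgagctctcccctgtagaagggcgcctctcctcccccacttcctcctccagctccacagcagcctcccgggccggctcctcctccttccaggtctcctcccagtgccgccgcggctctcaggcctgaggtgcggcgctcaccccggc
ITGA6: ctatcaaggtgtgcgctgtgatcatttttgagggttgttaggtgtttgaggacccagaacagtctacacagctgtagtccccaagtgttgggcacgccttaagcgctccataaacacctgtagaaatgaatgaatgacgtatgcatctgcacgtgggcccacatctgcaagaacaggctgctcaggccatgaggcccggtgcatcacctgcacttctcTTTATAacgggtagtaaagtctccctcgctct

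The windows of the 3 genes differed in composition. G and C made up 78.4% of the ITGB1 window, 70.8% of the ITGAV window and 50.8% of the ITGA6 window. ITGB1 held 3 GC boxes and 1 TEAD match. ITGA6 held a TATA match that began 32 bases before the start and read TATAAA on the strand opposite to the gene. ITGAV held none of the motifs. No motif was common to all 3 printed windows. Windows of other listed starts differed from these, since another ITGA6 window held 3 GC boxes and another ITGB1 window held 3 TATA matches. The other ITGAV window held none of the motifs. Among 35116 RefSeq promoter windows of the same length, 42.6% held a GC box, 11.9% a TEAD match and 10.7% a TATA match. TGANTCA (AP-1 site) and the p53 half-site were also searched on both strands. They occurred in 6.57% and 5.57% of all windows, and neither was found in any of the 12 member windows. Matches are letters in these windows only and were not tested as binding sites.

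The libraries held 2011916 to 6218825 counts each. Values are given as CPM, counts relative to the scaled total of each library, after TMM scaling of the 12 libraries, and 3 counts, the upper limit that a count of 0 allows, stood for 0.464 to 1.43 CPM per library (counting error only). Genes with too few counts were left out of the tests. A gene was called at a Benjamini-Hochberg adjusted p under 0.05 over all tested genes, and was a DEG where the absolute log2 fold change also exceeded 1. In bulk RNA, fewer cells of a type and less RNA per cell cannot be told apart. MDM2 and CDKN1A, p53 target genes that served as a check of the treatment, rose in A549 (log2 fold change 3.00 ± 0.454 SE, adjusted p = 0.0102, and 3.58 ± 0.705, adjusted p = 0.0252). In H1792 neither was called (-0.05 ± 0.353 and 0.15 ± 0.691, adjusted p = 0.928 and 0.882). Replicate 3 of both A549 groups stood apart from replicates 1 and 2. Over 11666 genes, which are not independent replicates, the deviations of these libraries from their group means correlated with each other at r = 0.273. With those of replicates 1 and 2 of the other treatment they correlated at -0.207 to -0.13. Deviations cancel out within a group, so that these negative values go with the positive one and are not separate evidence. Results in A549 are therefore also given without replicate 3, an alternative chosen after the data were seen.

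The labelled cell type was compared with marker genes. Keratins 7, 8, 18 and 19 had counts in every group, and the summed level of 6 epithelial markers was 14400 to 24000 CPM in A549 and 1070 to 2180 CPM in H1792. EPCAM, an epithelial adhesion molecule, stayed at 6.21 CPM or below in all libraries, and CDH1 at 1.06 CPM or below in H1792. Of 5 epithelial markers tested with RG7112 in H1792, 4 were called lower and 0 higher, beside 16.5% and 17.7% of all tested genes. Those called were the 4 keratins, which fell by 0.54 to 1.04 on the log2 scale. EPCAM, at few counts, was not called and had the opposite sign with GC correction (0.95, adjusted p = 0.192). With fold changes corrected for GC content KRT18 (-0.85, adjusted p = 0.00779) and KRT8 (-0.33, adjusted p = 0.0416) were still called there, and KRT7 (-0.34, adjusted p = 0.0597) and KRT19 (-0.17, adjusted p = 0.404) were not. KRT19 rose in A549 (1.27 ± 0.168, adjusted p = 0.00602). Of 7 fibroblast markers, COL1A1 and COL1A2 made up most of a summed 1120 to 1430 CPM in H1792, against 1.90 to 9.53 CPM in A549, and COL3A1 stayed at 1.86 CPM or below. In each H1792 group 5 of the 7 exceeded 3 counts in some library. Of 4 tested with RG7112 in H1792, 1 was called higher, beside 17.7% of all tested genes. Endothelial markers summed to at most 1.70 CPM. Of the 5 leukocyte markers, PTPRC, which defines leukocytes, stayed at 0.170 CPM or below, CD3E was at 0 in all groups, and CD14 and CD68 carried the 34.3 to 122 CPM of A549 and the 7.48 to 18.7 CPM of H1792.

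**Figure D1:**
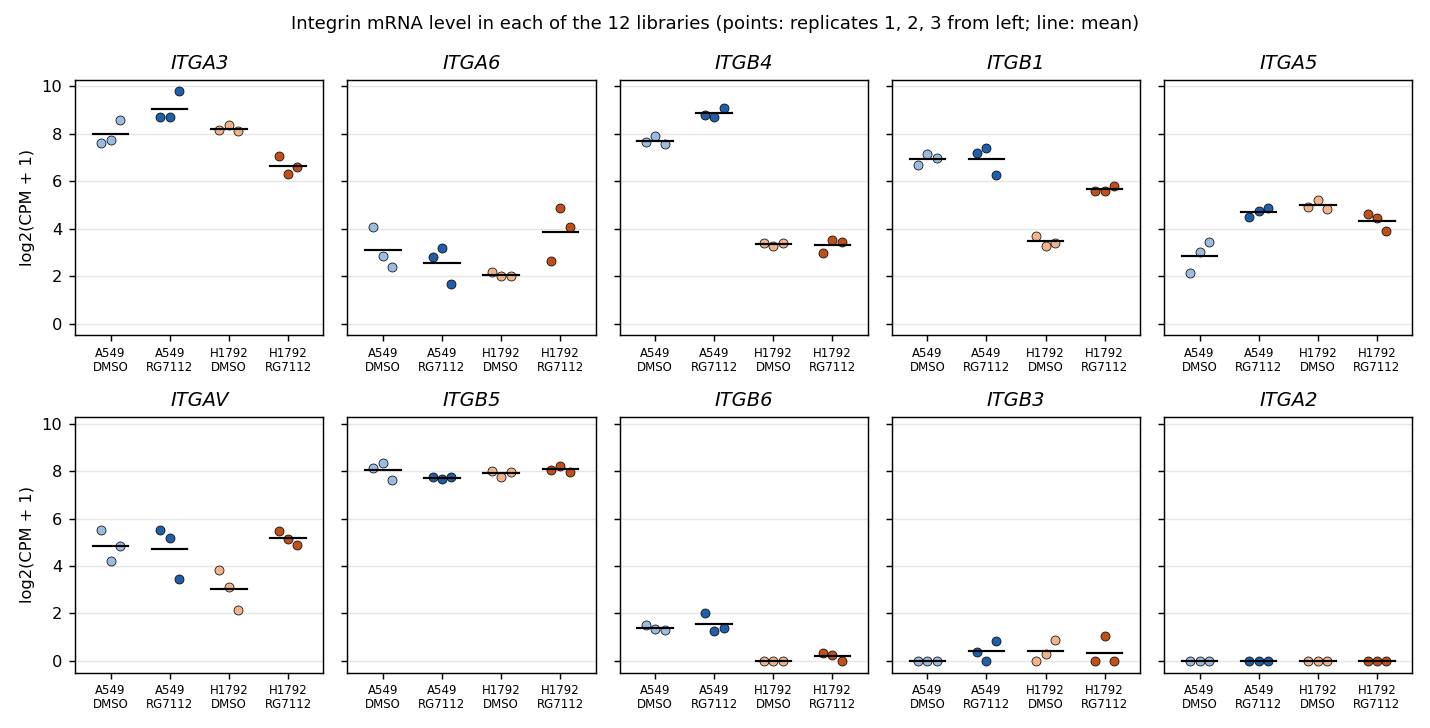
Level of each member as log2(CPM + 1) on the vertical axis in the 12 libraries, by line and treatment on the horizontal axis. Points are replicates 1, 2 and 3 from left to right and lines are means of the plotted values. ITGB4 lies at 188 CPM or above in every A549 library and at 10.5 CPM or below in every H1792 library, whereas ITGB5 lies between 194 and 325 CPM in all 12.

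At baseline, 3 of the 7 tested members were higher in A549 than in H1792 and 1 was lower, and among all 10330 tested genes 26.5% were called higher and 23.2% lower. The members' median log2 difference (A549 minus H1792) was 1.5, beside 0.08 over all tested genes. ITGB4 (chr17:75721328-75757818, plus strand), the hemidesmosome subunit, showed the greatest difference of the members. It was measured at 203, 238 and 188 CPM in A549 and at 9.495, 8.53 and 9.57 CPM in H1792, with a log2 difference of 4.56 ± 0.166 (SE, adjusted p = 8.72e-06). The 2 lines did not overlap. Its last exons overlap GALK1 on the opposite strand, and whether strand was used in counting is not stated.

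ITGB1 (chr10:32900319-33005792, minus strand), the shared β subunit, was measured at 103, 140 and 127 CPM in A549. In H1792 it reached 11.96, 8.76 and 9.57 CPM. Every A549 library was above every H1792 library, and the log2 difference was 3.66 ± 0.203 (adjusted p = 3.16e-05). ITGAV (chr2:186590065-186680901, plus strand), the α subunit of the vitronectin receptors, was also higher in A549, at 44.9, 17.4 and 27.3 CPM against 13.4, 7.60 and 3.48 CPM (1.90 ± 0.536, adjusted p = 0.0237). Its H1792 values rested on 38, 33 and 8 counts. On leaving out single libraries ITGAV kept its call in 3 of 6 fits (adjusted p = 0.0198 to 0.0796), and lost it without A549 replicate 1, H1792 replicate 2 or H1792 replicate 3.

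ITGA5 (chr12:54395261-54419460, minus strand), the fibronectin receptor α subunit, was the member lower in A549. It was measured at 3.43, 7.15 and 9.69 CPM in A549 and at 29.5, 35.7 and 27.4 CPM in H1792 (log2 difference -2.13 ± 0.366, adjusted p = 0.00318), without overlap. The laminin receptor subunit ITGA6 (chr2:172427354-172506282, plus strand) was measured at 15.9, 6.30 and 4.22 CPM in A549 and at 3.52, 3.00 and 3.05 CPM in H1792. Although the lines did not overlap, ITGA6 was not called (1.495 ± 0.566, adjusted p = 0.0635).

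The members with the most reads in H1792 were close between the lines. ITGA3 (chr17:50055968-50090481, plus strand), the other laminin receptor α subunit, was at 194, 213 and 383 CPM in A549 and at 287, 325 and 280 CPM in H1792 (-0.13 ± 0.244, adjusted p = 0.683). ITGB5 (chr3:124761948-124901418, minus strand), a partner of ITGAV, was at 282, 325 and 194 CPM in A549 and at 257, 217 and 245 CPM in H1792 (0.21 ± 0.205, adjusted p = 0.431). In both genes the A549 library of replicate 3 lay outside the range of replicates 1 and 2. Without A549 replicate 3, all 7 tested members were called, 5 higher and 2 lower in A549, with ITGA3 at -0.49 (adjusted p = 0.00659), ITGB5 at 0.39 (0.0393) and ITGA6 at 1.82 (0.0241). In that fit 5494 of 10570 genes were called, 2877 of them higher.

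The remaining members had too few counts for a test. ITGB6 (chr2:160099666-160200313, minus strand), the ITGAV partner that activates TGF-β, had 3 to 20 counts in each A549 library (1.43 to 3.09 CPM) and 0 or 1 count in each H1792 library. ITGB3 (chr17:47253846-47311816, plus strand), another ITGAV partner, reached at most 6 counts in any library (1.07 CPM) and had none in A549 with DMSO. It shares its strand and bases with a readthrough gene (ENSG00000259753), which had at most 8 counts in a library, so that reads of the pair could be split in counting. ITGA2 (chr5:52989326-53094779, plus strand), the collagen receptor subunit, was listed at 0 in all 12 libraries. Low values of single genes in this table need care. Some genes that every cell uses, picked after their values were seen, were also low. EEF1A1 and TUBB had 639 and 48 counts in all 12 libraries together, against 784157 for ACTB.

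Per kb of exons, a scale on which levels of different genes can be compared, the order in A549 with DMSO was ITGB5 (41.4 ± 10.3 CPM per kb, SD, n = 3), ITGB4 (31.0 ± 3.84), ITGA3 (26.9 ± 10.6) and ITGB1 (20.5 ± 3.12). The libraries of each of these overlapped with those of its neighbour in the order. ITGAV (3.64 ± 1.70) followed with a clear gap, then ITGA6 (1.35 ± 0.952), ITGA5 (0.892 ± 0.416) and ITGB6 (0.348 ± 0.0443). ITGAV, ITGA6 and ITGA5 overlapped with their neighbours, and ITGB6 lay below all of them. In H1792 with DMSO the order was ITGB5 (37.2 ± 3.16), ITGA3 (30.3 ± 2.46), ITGA5 (4.08 ± 0.569), ITGB1 (1.68 ± 0.277), ITGB4 (1.36 ± 0.0864), ITGAV (0.993 ± 0.605) and ITGA6 (0.488 ± 0.0440). The first 4 of these each lay apart from the next, whereas ITGAV overlapped with both ITGB4 and ITGA6. With the longest transcript as the length, ITGA3 moved above ITGB4 in A549 (48.1 and 35.4 CPM per kb), and in H1792 the libraries of ITGB5 and ITGA3 overlapped (54.8 and 54.2 CPM per kb).

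**Figure D2:**
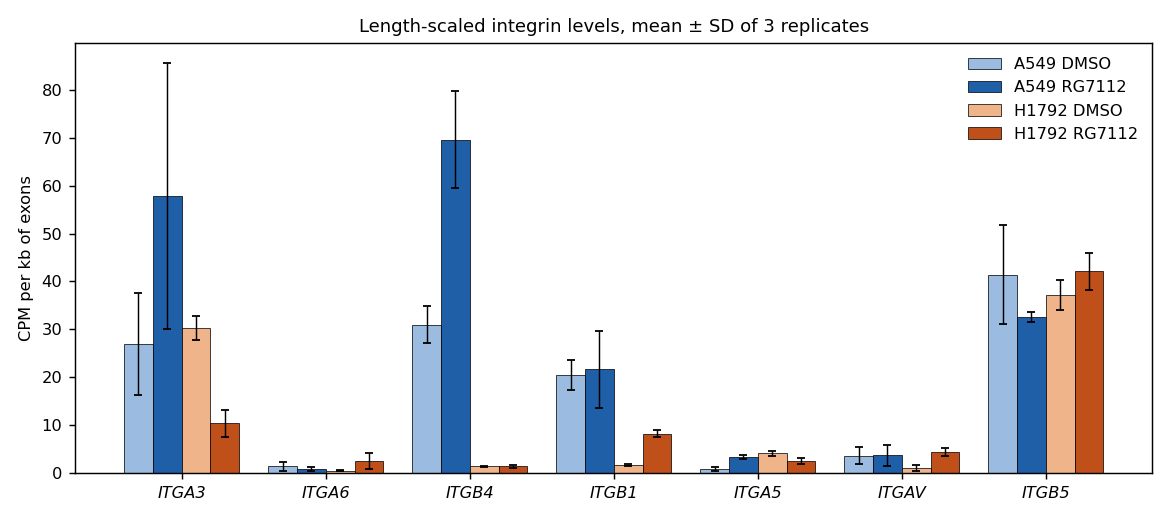
Mean level of the 7 tested members in CPM per kb of exons, as bars by line and treatment, with SD over 3 replicates as error bars. In H1792 with DMSO, ITGB5 and ITGA3 stand at 37.2 and 30.3 CPM per kb and the other members at 4.08 or below.

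With RG7112 in A549, 2 of the 7 tested members rose and none fell. Both were DEGs. Of 10739 tested genes, 4.35% were called higher and 4.03% lower, and 3.18% and 3.01% were DEGs in these directions. The members' median log2 fold change was 0.07, beside -0.01 over all tested genes. ITGB4 went from 203, 238 and 188 CPM with DMSO to 442, 422 and 548.7 CPM with RG7112. All 3 treated libraries were above all controls, and the log2 fold change was 1.17 ± 0.158 (adjusted p = 0.00646). ITGA5 went from 3.43, 7.15 and 9.69 CPM to 21.8, 26.1 and 27.9 CPM, also without overlap (1.88 ± 0.383, adjusted p = 0.0272). The ITGA5 call was lost on leaving out any library but replicate 3 of DMSO (adjusted p = 0.0333 to 0.105 over the 6 fits), whereas ITGB4 was called in each of these fits.

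ITGA3 was measured at 194, 213 and 383 CPM with DMSO and at 410, 411 and 881 CPM with RG7112 in A549. Its treated libraries were all above its controls, but replicate 3 was the highest in each group and ITGA3 was not called (1.11 ± 0.388, adjusted p = 0.136). Without replicate 3 it was called at a similar fold change (1.01, adjusted p = 0.00449), as it was with DESeq2 (1.12, adjusted p = 0.0302) and with a block for replicate number (1.08, adjusted p = 0.00957). It was called in 0 of the 6 fits that left out 1 library (adjusted p = 0.0905 to 0.338). Nor was ITGA3 called with GC correction (0.85, adjusted p = 0.141). ITGB5 went from 282, 325 and 194 CPM to 216, 202 and 212 CPM (-0.35 ± 0.196, adjusted p = 0.341), and without replicate 3 it was called lower (-0.53, adjusted p = 0.0374). Without replicate 3, 4 members were thus called, namely ITGB4, ITGA5, ITGA3 and ITGB5, where 11096 genes were tested and 1196 called.

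ITGB1, ITGAV and ITGA6 were not called in A549 in either case. ITGB1 was at 147, 168 and 75.01 CPM with RG7112 (0.07 ± 0.299, adjusted p = 0.916). ITGAV was at 45.1, 35.2 and 10.0 CPM (0.03 ± 0.570, adjusted p = 0.984). ITGA6 was at 6.03, 8.08 and 2.17 CPM (-0.70 ± 0.656, adjusted p = 0.577). All 3 genes were lowest in replicate 3 of the treated libraries, and their treated range overlapped with the controls.

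In H1792, RG7112 was followed by a change in 4 of the 7 tested members. ITGB1, ITGAV and ITGA6 rose and ITGA3 fell, all as DEGs. Here 17.7% of 9914 tested genes were called higher and 16.5% lower, with 10.3% and 4.34% as DEGs, so that a call in H1792 was common. The members' median log2 fold change was 0.25, beside 0.01 over all tested genes. ITGB1 rose from 11.96, 8.76 and 9.57 CPM to 46.4, 47.6 and 54.1 CPM (2.37 ± 0.190, adjusted p = 0.00272). Treated and control libraries were far apart, and the gene was called in each fit that left out a library. It remained below its level in A549 with DMSO, 123 ± 18.7 CPM (SD, n = 3).

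ITGAV rose from 13.4, 7.60 and 3.48 CPM to 43.6, 34.6 and 28.8 CPM (2.18 ± 0.433, adjusted p = 0.0115). The groups did not overlap. ITGA6 rose from 3.52, 3.00 and 3.05 CPM to 5.16, 28.0 and 15.8 CPM (2.44 ± 0.629, adjusted p = 0.0261). Replicate 1 of the treated libraries lay near the controls, the controls held only 7 to 13 counts, and the ITGA6 call was kept in 1 of the 6 fits that left out a library, the one without treated replicate 1 (adjusted p = 0.0044 to 0.0885). ITGA3 fell from 287, 325 and 280 CPM to 131, 78.3 and 94.5 CPM (-1.48 ± 0.182, adjusted p = 0.00375), and was called in all 6 such fits.

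ITGB4, ITGA5 and ITGB5 were not called in H1792. ITGB4 was at 6.96, 10.5 and 9.99 CPM, on both sides of its control range of 8.53 to 9.57 CPM (0.07 ± 0.269, adjusted p = 0.856). ITGA5 went from 29.5, 35.7 and 27.4 CPM to 23.5, 20.8 and 13.9 CPM (-0.60 ± 0.228, adjusted p = 0.0843), with all treated libraries below the controls. ITGB5 went from 257, 217 and 245 CPM to 267, 298 and 250 CPM (0.26 ± 0.109, adjusted p = 0.113), and the groups overlapped.

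Fold changes of all genes were related to their GC content, in opposite directions in the lines. In H1792, the median log2 fold change of genes with 36 to 40% GC was 0.63 and that of genes with 60 to 64% GC was -0.44. In A549 the same classes had medians of -0.24 and 0.22. The members that rose in H1792 were of low GC content, namely ITGAV (38.3%), ITGB1 (39.98%) and ITGA6 (42.9%), and ITGA3, which fell, had 61.3%. With fold changes corrected for GC content, ITGB1 (1.75 ± 0.162, adjusted p = 0.00385), ITGAV (1.56 ± 0.419, adjusted p = 0.0368) and ITGA3 (-1.08 ± 0.153, adjusted p = 0.00628) were still called in H1792. ITGA6 was not (1.93 ± 0.592, adjusted p = 0.0531), and ITGB5 was called higher (0.38 ± 0.109, adjusted p = 0.0438). In A549 the corrected values left the calls at ITGB4 (63.7% GC, 0.93 ± 0.126, adjusted p = 0.00676) and ITGA5 (54.5% GC, 1.81 ± 0.361, adjusted p = 0.0248).

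**Figure D3:**
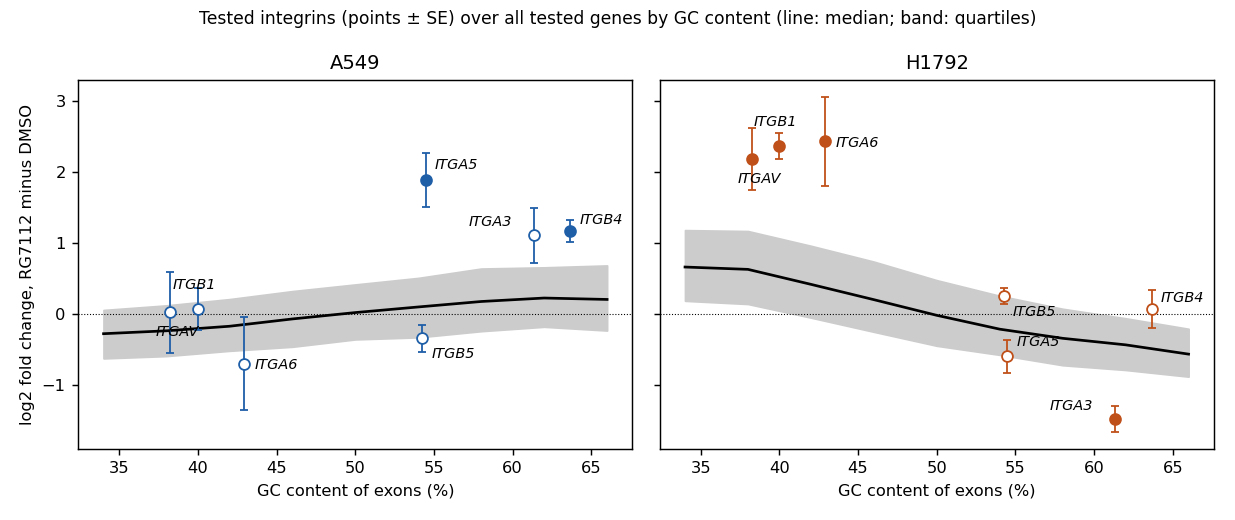
Log2 fold change with RG7112 on the vertical axis against GC content in percent on the horizontal axis, for A549 and H1792. GC content is that of the exons of the longest transcript of each gene. The line and band are the median and quartiles of all tested genes, and points with SE are the tested members, filled where called. ITGB1, ITGAV and ITGA6 lie above the band of genes of their GC content in H1792, and ITGA3 below it.

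**Figure D4:**
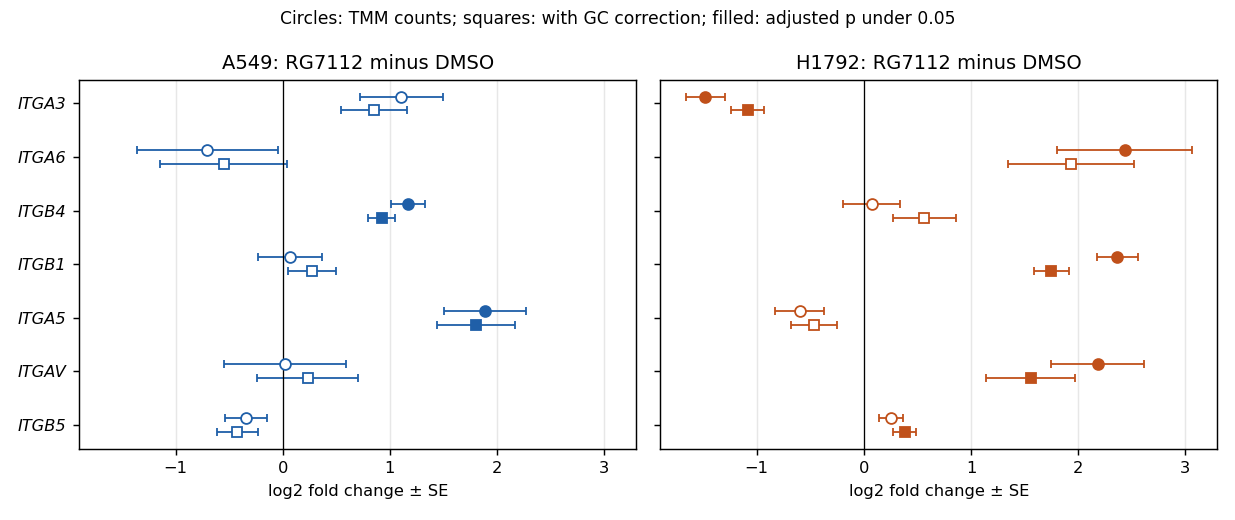
Log2 fold change with RG7112 (± SE) on the horizontal axis for each tested member in A549 and H1792. Circles are the values from TMM-scaled counts, squares those with GC correction, and filled symbols mark an adjusted p under 0.05. In H1792 the corrected values of ITGB1, ITGAV, ITGA6 and ITGA3 lie nearer to 0 than the uncorrected ones and keep their signs.

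The responses of the lines differed in 5 of the 7 tested members, by a test of the interaction over all 12 libraries (A549 response minus H1792 response). Of these, 3 were called higher, as were 10.4% of the 11666 tested genes, and 2 lower, as were 11.4%. The members' median was -0.53, beside 0.02 over all tested genes. ITGA3 had means of 264 ± 104 and 567 ± 272 CPM in A549, where its change was not called, and fell in H1792, from 297 ± 24.2 to 101 ± 27.0 CPM, with a difference between the responses of 2.66 ± 0.482 (adjusted p = 0.00447). ITGA5 differed by 2.56 ± 0.460 (adjusted p = 0.00421), and with RG7112 its level was 25.3 ± 3.15 CPM in A549 and 19.4 ± 4.91 CPM in H1792, where the libraries of the lines overlapped and no test was run. ITGB4 differed by 1.16 ± 0.247 (adjusted p = 0.00929). With GC correction the ITGB4 difference was 0.43 and no longer called (adjusted p = 0.25), and the same held with scaling by library size alone (0.74, adjusted p = 0.0609).

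ITGB1 and ITGA6 responded more in H1792. The difference was -2.22 ± 0.382 for ITGB1 (adjusted p = 0.00348) and -3.06 ± 0.972 for ITGA6 (adjusted p = 0.0446). ITGA6 kept its call in 3 of 12 fits that left out a library and lost it with GC correction (adjusted p = 0.0811). ITGAV differed by a similar amount but was not called (-2.09 ± 0.796, adjusted p = 0.0844), and neither was ITGB5 (-0.53 ± 0.230, adjusted p = 0.124). With GC correction ITGB5 was called (-0.76, adjusted p = 0.0492). Without A549 replicate 3, ITGB5 was called as well (-0.72, adjusted p = 0.0111), which made 6 members, where 2718 of 11860 genes were called.

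The balance of subunits that can pair was described by ratios of CPM per kb. ITGB4 exceeded ITGA6 in all A549 libraries, by 12.3, 36.5 and 42.9 times with DMSO and by 70.8, 50.5 and 245 times with RG7112. In H1792 the ratio went from 2.61, 2.75 and 3.04 to 1.30, 0.361 and 0.611. The groups did not overlap in either line, and the ratio was higher with RG7112 in A549 and lower in H1792. The ratio rests on few ITGA6 counts, 17 to 51 per library in A549 with DMSO and 8 to 39 with RG7112. In the H1792 controls ITGA6 held 7 to 13 counts. The change of ITGA6 in A549 was itself not called. None of the ratios here was corrected for GC content, to which fold changes were related in opposite directions in the lines. ITGB4 (63.7%) and ITGA3 (61.3%) had a higher GC content than ITGA6 (42.9%) and ITGB1 (39.98%). The 4 α subunits ITGA3, ITGA5, ITGA6 and ITGAV together exceeded ITGB1 by 17.7, 26.9 and 20.8 times in H1792 with DMSO and by 2.92, 2.43 and 1.93 times with RG7112. In A549 the same ratio was 1.64, 1.11 and 2.10 with DMSO and 2.09, 1.82 and 7.62 with RG7112, where the groups overlapped. Each of these ratios without overlap had a p of 0.1 by the two-sided exact permutation test (0.133 adjusted over 12 comparisons), which is the smallest that 3 libraries against 3 allow.

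Summed over all 26 subunits, integrin reads rose from 940, 1046 and 1030 CPM to 1407, 1400 and 1877 CPM in A549 and went from 842, 848 and 795 CPM to 727, 720 and 673 CPM in H1792. Neither pair of groups overlapped, and no test was run on the sums. The 10 members held 90.6 ± 0.273% of the sum in A549 with DMSO and 92.1 ± 1.44% with RG7112. In H1792 they held 72.3 ± 0.744% and 71.2 ± 1.53%, where the collagen receptor subunit ITGA11 was the most abundant other subunit at 153 ± 15.3 CPM with DMSO.

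Among the 16 other subunits, 8 could be tested in A549 and 6 in H1792. Only ITGA11 was called with RG7112 in A549, from 22.7 ± 1.19 to 42.8 ± 7.62 CPM (0.91 ± 0.210, adjusted p = 0.0414), and it was not called with scaling by library size alone or without replicate 3. In H1792 it fell from 153 ± 15.3 to 104 ± 5.40 CPM (-0.48 ± 0.090, adjusted p = 0.00923), a call that scaling by library size alone removed. The interaction for ITGA11 was 1.47 ± 0.204 (adjusted p = 0.00103). ITGA4, the α subunit that binds fibronectin and VCAM1, rose in H1792 from 13.2 ± 2.76 to 54.1 ± 10.2 CPM (2.12 ± 0.231, adjusted p = 0.00305). It held at most 12 counts in each A549 library, and its interaction of -2.24 ± 0.603 (adjusted p = 0.0236) was lost with GC correction (adjusted p = 0.0561) and without A549 replicate 3. ITGAX, a leukocyte integrin α subunit, went from 5.91 ± 3.63 to 20.01 ± 4.24 CPM in A549 (1.78 ± 0.463, adjusted p = 0.0612) and held at most 3 counts in each H1792 library. At baseline, ITGAX (4.10), its partner ITGB2 (3.93) and the platelet subunit ITGA2B (2.87) were higher in A549 (log2 difference, adjusted p = 0.00341, 0.00135 and 0.00199), and ITGA4 (-3.27) and ITGA11 (-2.70) were lower (0.000617 and 1.96e-05).

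The subunits not called in a response had the following log2 fold changes. In A549 they were -1.14 for ITGA2B, -0.28 for ITGA7, -0.70 for ITGA10, -0.41 for ITGAE, which pairs with ITGB7 to bind E-cadherin, 0.64 for ITGB2 and 0.76 for ITGB8. In H1792 they were -0.21 for ITGA7, -0.32 for ITGA10, -0.54 for ITGAE and 0.53 for ITGB8. Adjusted p lay between 0.0647 and 0.791 for these.

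Of the membrane partners of integrins, 1 rose and 1 fell among 18 tested in A549, beside 4.35% and 4.03% of all tested genes. CD82, a tetraspanin that binds integrins, rose from 13.6 ± 2.95 to 207 ± 32.7 CPM (3.92 ± 0.227, adjusted p = 0.000326). SLC3A2, the heavy chain of an amino acid transporter that binds β subunits, fell from 530 ± 36.7 to 165 ± 11.6 CPM (-1.68 ± 0.124, adjusted p = 7e-04). Neither gene was called in H1792 and both differed in response (3.90 and -1.60, adjusted p = 3.15e-05 and 3.12e-05). In H1792, 3 of 16 partners rose and 3 fell, beside 17.7% and 16.5% of all tested genes. CD151, the tetraspanin partner of the laminin receptors, fell (-0.69 ± 0.0717, adjusted p = 0.003, and -0.24 with GC correction, adjusted p = 0.0269), as did CD63 (-0.57 ± 0.105, adjusted p = 0.00895). CAV1, which encodes caveolin, rose (0.86 ± 0.0988, adjusted p = 0.00316, and 0.53 with GC correction, adjusted p = 0.0185). MET, a receptor tyrosine kinase, was called from controls of 0 to 0.703 CPM, within the limit of 3 counts, to 4.90 to 28.4 CPM. The remaining calls, named after their values were seen, were CD44, a hyaluronan receptor (0.33, adjusted p = 0.0211), and SDC4, a syndecan (-0.39, adjusted p = 0.0103). With GC correction CD44 turned to -0.04 and was not called (adjusted p = 0.729).

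Hemidesmosome genes other than the integrins were called higher in 2 of 7 tested in A549, beside 4.35% of all tested genes. PLEC, which links ITGB4 to keratin, rose from 1092 ± 117 to 1805 ± 81.9 CPM (0.73 ± 0.126, adjusted p = 0.0157), and DST, another linker protein, also rose (1.15 ± 0.188, adjusted p = 0.0126). The median log2 fold change of the list was 0.73. With GC correction the PLEC call was lost (0.50, adjusted p = 0.11). In H1792, 1 of 6 rose (ERBIN, 1.16 ± 0.266, adjusted p = 0.0176) and 1 fell (CD151), with a median of -0.22. Of all tested genes there, 17.7% were called higher and 16.5% lower. ERBIN was not called with GC correction (0.49, adjusted p = 0.187), where none rose and 2 fell, CD151 and DST (-0.29, adjusted p = 0.0366). Both PLEC and DST differed in response (1.03 and 0.95, adjusted p = 0.00138 and 0.014), as did LAMA3, a chain of laminin-332 (2.73 ± 0.729, adjusted p = 0.0235). With GC correction the PLEC difference was 0.26 and not called (adjusted p = 0.414), and that of DST was 1.65 (adjusted p = 0.000107). At baseline PLEC was higher in A549 by 0.35 ± 0.112 on the log2 scale (adjusted p = 0.0371), a call that GC correction removed (0.14, adjusted p = 0.448).

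Matrix ligands were called in 4 of 28 higher and 1 lower in A549, with a median of 0.52. Of all tested genes, 4.35% were called higher and 4.03% lower. HSPG2, the basement membrane proteoglycan perlecan, rose from 83.1 ± 34.4 to 355 ± 146 CPM (2.10 ± 0.377, adjusted p = 0.0182), and COL4A5, a basement membrane collagen chain, rose from 21.1 ± 2.65 to 56.5 ± 8.46 CPM (1.43 ± 0.208, adjusted p = 0.00851). FBN1, an RGD-containing microfibril protein, and MFGE8, a ligand of ITGAV receptors, rose as well (1.87 ± 0.328 and 1.15 ± 0.244, adjusted p = 0.0162 and 0.0334). The ligand that fell, named after its values were seen, was FGG, a fibrinogen chain (-1.34, adjusted p = 0.0451). With GC correction FGG was not called (-1.07, adjusted p = 0.091) and another fibrinogen chain, FGB, was (-1.48, adjusted p = 0.0468). Without A549 replicate 3, 11 ligands rose and none fell, where 1196 of 11096 genes were called, 625 of them higher. In H1792, 5 of 26 rose and 6 fell, beside 17.7% and 16.5% of all tested genes. With scaling by library size alone 7 rose and 2 fell. FN1, fibronectin, rose from 2272 ± 285 to 4373 ± 739 CPM (1.02 ± 0.157, adjusted p = 0.00571, and 0.50 with GC correction, adjusted p = 0.0181). Its receptor subunit ITGA5 was not called, whereas ITGB1, the partner of ITGA5, and ITGA4, which also binds fibronectin, were called higher. So was ITGAV, whose receptors bind RGD-containing ligands. MFGE8 (0.89), THBS1, a thrombospondin (1.83), and EDIL3, an RGD protein (2.82), rose as well, named after their values were seen (adjusted p = 0.0303, 0.0155 and 0.0323). The EDIL3 controls held 0 to 5 counts, and its call was lost with GC correction (2.18, adjusted p = 0.0752). LAMA4, a laminin chain, rose (1.10 ± 0.222, adjusted p = 0.0119), and COL6A1 and LTBP3, the latter a carrier of latent TGF-β, fell (-1.23 ± 0.225 and -0.79 ± 0.0702, adjusted p = 0.00926 and 0.00272). All 5 ligands that rose are thus named here, whereas the others of the 6 that fell are not. With GC correction COL6A1 was at -0.77 (adjusted p = 0.0259) and LTBP3 was not called (-0.20, adjusted p = 0.24). At baseline 10 of 29 ligands were higher in A549 and 10 lower, beside 26.5% and 23.2% of all tested genes. LAMA5, a basement membrane laminin chain, and MFGE8 were higher (5.01 and 4.06, adjusted p = 8.72e-06 and 1.96e-05), and the collagen I genes COL1A2 (-10.91) and COL1A1 (-5.45) were lower (8.53e-06 and 1.46e-05).

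Among activators and adhesion adaptors, which carry the signal from the integrin tail to actin, 1 of 45 tested was called in A549 and 22 of 43 in H1792, 11 in each direction. Of all tested genes, 4.35% were called higher and 4.03% lower in A549, and 17.7% and 16.5% in H1792. TNS3, a tensin, fell in A549 from 101 ± 2.63 to 57.7 ± 4.98 CPM (-0.80 ± 0.146, adjusted p = 0.0189). In H1792 it was called lower, from 21.3 ± 3.43 CPM to 0 to 0.710 CPM. TLN1, talin, which activates integrins from inside, fell in H1792 from 45.4 ± 10.4 to 10.2 ± 1.46 CPM (-2.07 ± 0.229, adjusted p = 0.00307), and FERMT3, a kindlin, fell from 188 ± 21.9 to 94.4 ± 5.24 CPM (-0.92 ± 0.0963, adjusted p = 0.003). ENAH, an actin regulator, rose (1.35 ± 0.146, adjusted p = 0.00305). With GC correction FERMT3 was at -0.50 and ENAH at 0.75, both still called (adjusted p = 0.00862 and 0.00731). With scaling by library size alone the H1792 split was 17 higher and 10 lower, and with GC correction 8 and 10. FLNA, a filamin that binds β tails, differed in response by 3.29 ± 0.557 (adjusted p = 0.00329), from 3510 ± 438 to 649 ± 316 CPM in H1792 against 1500 ± 689 to 2716 ± 1092 CPM in A549, and TLN1 differed by 2.02. At baseline 17 of 45 were higher in A549 and 9 lower, beside 26.5% and 23.2% of all tested genes. FERMT3 was lower (-5.95, adjusted p = 4.27e-05), and LASP1, TNS3 and NEDD9 were higher (2.44, 2.29 and 3.35, adjusted p = 5.62e-05, 7.63e-05 and 8.64e-05).

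**Figure D5:**
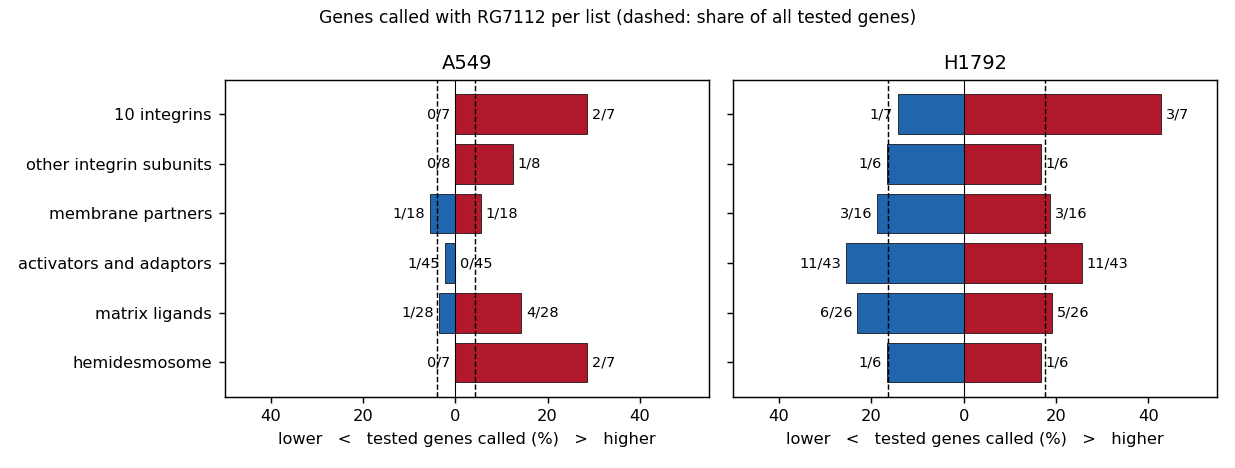
Share of tested genes called with RG7112 in each list, in percent, with higher to the right and lower to the left, for A549 and H1792. Numbers give called of tested genes and dashed lines the share of all tested genes in that direction, 4.35% and 4.03% in A549 and 17.7% and 16.5% in H1792. The 10 integrins show 2 of 7 higher in A549 and 3 of 7 higher and 1 of 7 lower in H1792.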

How the data were processed

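Poly-A RNA of 12 samples (A549 and H1792, DMSO or RG7112, 3 replicates each) was sequenced by the authors from both ends. The labels give a read length of 38 nt and the study's methods another. Per gene, the authors deposited expected counts that had been summed over transcripts with biomaRt. These came from kallisto 0.45.0 run on Ensembl GRCh38, and they are whole and not normalized. All columns were mapped by line, treatment and replicate number. Of 20595 identifiers, 18011 were found in GENCODE v29, including all 10 members. Positions, exon lengths and GC content (17982 genes, longest transcript of each) came from it.

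The members and gene lists were chosen with earlier results of these data known. Genes named were all members, every tested other subunit, up to 4 called genes with the smallest p per list and comparison, and MDM2 and CDKN1A. Tests used R 4.3.3, edgeR 4.0.16 (filterByExpr with minimum count 10 and minimum total count 15, TMM, robust quasi-likelihood) and limma 3.58.1, one fit per comparison over all kept genes, and an interaction over all 12 libraries. The scripts were tested on simulated counts. Length-scaled ratios were compared by exact permutation tests. Depth was 2011916 to 6218825 counts per library. Alternatives were DESeq2 1.42.0, RLE size factors, library size alone, no filter, a GC correction (loess per library, span 0.5), all libraries in one fit, the replicate number as a block, leaving out each library and, added after the data were seen, A549 without replicate 3. ZYX, on the adaptor list, had counts identical to those of ENSG00000285443. Gene-level differences between isoforms were not analysed here. The values of 1 listed gene that the naming rule selected are not reported here.

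Whether replicate numbers pair the samples is not stated. Libraries of a group differed by more than sampling noise, with a chi-square per degree of freedom of 5.12 to 23.3, so none was taken as a repeat of another.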

Additional observations from a re-analysis of the deposited data

Results flagged for a closer look

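Responses to RG7112 that differed between A549 and H1792 are listed here with the log2 difference, A549 response minus H1792 response, each with an adjusted p under 0.05 in the interaction test of edgeR. Among the members these were ITGA3 (2.66), ITGA5 (2.56), ITGB4 (1.16), ITGB1 (-2.22) and ITGA6 (-3.06). Other subunits were ITGA11 (1.47) and ITGA4 (-2.24). Among adaptors, TNS3 (4.52), FLNA (3.29) and TLN1 (2.02) were higher and PTK2, focal adhesion kinase, was lower (-0.80). The value of TNS3 rests on treated H1792 libraries of 0 to 0.710 CPM and depends on how low counts are fitted. Matrix ligands in the list were HSPG2 (4.10), LAMA3 (2.73), COL6A1 (2.56), FBN1 (1.86) and COL6A2 (1.47). Membrane partners were CD82 (3.90), SDC4 (1.02), CD151 (1.01) and SLC3A2 (-1.60), and hemidesmosome genes PLEC (1.03) and DST (0.95). With GC correction the calls of ITGB4 (0.43), ITGA6 (-2.50), ITGA4 (-1.80), PTK2 (-0.37), CD151 (0.35) and PLEC (0.26) were lost, COL6A2 came to 0.68 (adjusted p = 0.0498) and DST to 1.65. No cause was tested for any of them.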

How the results depend on the processing

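Calls of ITGB4 in A549 and of ITGB1, ITGAV and ITGA3 in H1792 held when each library was left out. The count of members called was 2 in A549, 4 in H1792, 4 at baseline and 5 for the difference of responses. Leaving out 1 library gave 1 to 2 in A549 and 3 to 7 at baseline, with 7 without replicate 3 of A549 DMSO. Without replicate 3 of both A549 groups the counts were 4 in A549 and 7 at baseline. With the replicate block and GC correction together the difference of responses counted 3. With the replicate block alone, counts were 3 in A549, 3 in H1792, 4 at baseline and 4 for the difference. Correlations did not settle whether replicate numbers pair the samples (r of same-numbered libraries 0.059 to 0.273 in A549 and -0.022 to 0.003 in H1792). The value of 0.273 was that of replicate 3 in A549, whereas A549 DMSO replicate 1 was closest to RG7112 replicate 2.

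Signs that changed belonged to members that were not called. In A549, leaving out a library gave ITGA6 -1.04 to 0.01, ITGAV -0.42 to 0.45 and ITGB1 -0.14 to 0.35, and ITGAV was -0.01 with library size alone and -0.11 with the replicate block. ITGB4 in H1792 ranged from -0.04 to 0.23. At baseline ITGA3 was 0.07 with library size alone and -0.49 to 0.04 on leaving out a library, and ITGB5 was -0.03 with GC correction and -0.05 with the replicate block and GC correction. The causes were not tested.

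Scaling by library size alone moved the median of all genes to 0.27 in H1792, 0.29 at baseline and -0.37 for the difference, and the calls that were higher to 2637 of 3486, 3277 of 5175 and 645 of 2802 (with TMM 1752 of 3384, 2735 of 5134 and 1210 of 2539). With GC correction 1097 of 2628 were higher in H1792 and 2238 of 5224 at baseline. Over all genes DESeq2 called 1438 in A549 and a fit of all 12 samples 1557, against 900. The replicate block called 1840 in H1792, and 887 with GC correction. It called 1606 with GC correction for the difference. Leaving out libraries gave 321 to 725 calls in A549, 1851 to 3377 in H1792 and 1584 to 2978 for the difference. The A549 matrix ligands counted 10 higher and 0 lower with the replicate block. ITGA6 rested on 7 to 13 counts in H1792 controls, and 3 members had too few counts for a test.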

Other observations

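Subunits below the counts needed for a test had these values. ITGA8 was listed at 0 in all 12 libraries, and ITGA9 had 2 counts in 1 library of H1792 with RG7112 (0.516 CPM) and none elsewhere. ITGA1, a collagen receptor subunit, was at 1.197 ± 0.198 CPM in A549 with RG7112 and at 0.249 ± 0.430 CPM with DMSO, and at 1.15 ± 0.196 and 0.497 ± 0.530 CPM in H1792. ITGAM, a leukocyte subunit, was at 1.68 ± 0.796 CPM in A549 with RG7112 and at 0.440 ± 0.111 CPM with DMSO, and at 0 in H1792. ITGAD, ITGAL and ITGB7 stayed at 2.38 CPM or below in all libraries.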
